A study of Rattus norvegicus with 12 samples.

Results

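Spp1, Mmp12, Ctsk, Trem2, Apoe, Lpl, Clec7a, Atp6v0d2, Ocstamp and Tm4sf19 are known from macrophages that take up lipid and from macrophages that fuse into giant cells or osteoclasts. These 10 genes of the 18749 in the count table were followed in intestine of wild-type (WT) rats, in a study of how the small intestine adapts to total colectomy. They were chosen by their postSTC counts set against the preSTC and preCTC counts of these same libraries, so those values are given as a description, with no test. Polyadenylated RNA was sequenced in 12 libraries of batch 1. The 4 postSTC libraries (replicates 1, 2, 5 and 7) are labelled postoperative, the 4 preSTC libraries (1, 5, 7 and 9) preoperative, and the 4 preCTC libraries (1, 5, 7 and 9) as taken ahead of a sham operation. No strain, sex, age or time after surgery is given in the labels, which do not spell out STC or CTC, and no library from after a sham operation was analysed here. Whether each replicate is its own animal is not in the labels, and p-values measure only how these libraries vary, which may be technical.

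Macrophages engulf dead cells, lipoproteins and debris, and they store or export the cholesterol and fatty acids that come with them. In many tissues a lipid-handling state is known that switches on Trem2, a lipid-sensing receptor that signals through the adaptor Tyrobp, together with Apoe, Lpl, Spp1 and lysosomal genes. When macrophages fuse, into bone-resorbing osteoclasts or into the giant cells that form around foreign material, they use membrane proteins such as Dcstamp and Ocstamp, a proton pump that acidifies the sealed-off space, and proteases such as cathepsin K.

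Sequence around the transcription start was examined because several of these genes had a like pattern over the libraries. RefSeq windows on assembly GRCr8, covering 250 bases before and 50 after the start, were on hand for 8 of the 10 genes, in 10 windows. The windows of Mmp12, Ctsk, Trem2 and Tm4sf19 are printed 5′ to 3′ on the gene's strand, since each holds a match to more than 1 of 4 motifs linked to macrophages and osteoclasts. Capitals mark the matches.
Mmp12, GRCr8 chr8:12866402-12866701, + strand: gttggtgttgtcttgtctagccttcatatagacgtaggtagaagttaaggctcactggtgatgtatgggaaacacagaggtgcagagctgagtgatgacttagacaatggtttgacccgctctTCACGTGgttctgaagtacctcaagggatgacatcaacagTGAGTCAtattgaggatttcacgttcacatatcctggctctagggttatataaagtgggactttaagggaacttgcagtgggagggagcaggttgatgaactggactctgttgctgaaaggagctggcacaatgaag
Ctsk, GRCr8 chr2:185747298-185747597, + strand: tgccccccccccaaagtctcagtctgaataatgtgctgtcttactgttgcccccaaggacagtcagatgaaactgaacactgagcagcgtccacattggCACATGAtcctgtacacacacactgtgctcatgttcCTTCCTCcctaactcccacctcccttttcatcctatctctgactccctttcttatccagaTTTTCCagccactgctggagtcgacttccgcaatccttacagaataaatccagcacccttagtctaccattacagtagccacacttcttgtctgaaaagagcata
Trem2, GRCr8 chr9:20151730-20152029, - strand: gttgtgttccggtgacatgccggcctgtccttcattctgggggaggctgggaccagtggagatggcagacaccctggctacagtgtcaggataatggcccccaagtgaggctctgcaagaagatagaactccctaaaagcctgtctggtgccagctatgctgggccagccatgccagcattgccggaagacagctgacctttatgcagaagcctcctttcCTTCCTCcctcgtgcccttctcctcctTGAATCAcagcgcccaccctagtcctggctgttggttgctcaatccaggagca
Tm4sf19, GRCr8 chr11:81889597-81889896, - strand: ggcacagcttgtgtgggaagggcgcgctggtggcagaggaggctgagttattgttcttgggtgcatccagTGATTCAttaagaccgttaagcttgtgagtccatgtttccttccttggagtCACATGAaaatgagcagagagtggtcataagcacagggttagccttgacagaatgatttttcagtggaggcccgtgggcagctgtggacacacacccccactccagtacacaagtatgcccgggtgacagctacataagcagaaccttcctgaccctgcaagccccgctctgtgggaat

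The 4 motifs were searched on both strands, and they were chosen with the sequences in view. N stands for any base, so a pattern with an N is loose. TCANGTG, a loose form of the site of the MiT/TFE family that includes the osteoclast factor Mitf, was found in 5 of the 8 genes. They were Mmp12, Ctsk, Tm4sf19, Apoe and Clec7a, against 13.4% of 33469 promoter windows of the same length. The letters were TCACGTG in Mmp12, TCATGTG on 1 of the strands in Ctsk, Tm4sf19 and Apoe, and TCAAGTG in Clec7a. In the Mmp12 window the match starts 127 bases before the start site, and in the Ctsk window 151 bases before. TGANTCA, a loose AP-1 form, was found in Mmp12, Trem2 and Tm4sf19, which is 3 of 8, against 7.33% of all windows. The letters were TGAGTCA in Mmp12, TGAATCA in Trem2 and TGATTCA in Tm4sf19, so the middle base differed. The match lies 87 bases before the start of Mmp12, 180 before that of Tm4sf19 and 3 before that of Trem2. GAGGAAG, a form bound by the myeloid factor PU.1, was found in Ctsk and Trem2, 115 and 30 bases before the start, which is 2 of 8 against 12.4% of all windows. GGAAAA, the core used by NFAT factors, was found in Ctsk alone, 55 bases before the start, which is 1 of 8 against 24.7% of all windows. No 2 of the printed matches overlap. These are matches of letters, and no binding was measured.

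Libraries held 30095656 to 39374682 counts. The library labelled postSTC7 stood apart: 10 listed genes of male accessory glands made up 42.1% of its counts, against at most 0.0241% in any other library, and its scaling factor was 0.568. Levels are therefore given as CPM, the count scaled to the size of the library, with sizes set by the trimmed mean of M values, and results that rest on postSTC7 are also given without it. At this depth a count of 0 in a library allows a level of up to 0.0723 to 0.134 CPM (3 counts, counting error only). The markers Cd68, Csf1r and C1qa were measured in every group, and so were epithelial markers, whose summed level was 6043 to 12614 CPM in postSTC, 12036 to 15146 in preSTC and 8570 to 12617 in preCTC. Of 15704 genes tested in postSTC against preSTC, 11.1% were called higher and 6.9% lower at an adjusted p under 0.05. In postSTC against preCTC, 9.27% were called higher and 7.37% lower.

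The 3 genes for a secreted phosphoprotein and 2 proteases had wide gaps between the groups. Spp1 encodes osteopontin, a secreted phosphoprotein that binds integrins and Cd44. It stood at 156, 161, 303 and 39.1 CPM in postSTC1, 2, 5 and 7, against 1.80, 1.61, 2.48 and 4.06 CPM in the preSTC libraries and 1.49, 0.532, 0.591 and 1.25 CPM in the preCTC libraries. Every postSTC library was above every preoperative one, and postSTC7 was the lowest of the 4. The fitted log2 fold change was 6.05 ± 0.63 (SE) against preSTC and 7.41 ± 0.67 against preCTC, with 4 libraries in each group.

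Mmp12 encodes macrophage elastase, which cuts elastin and other matrix proteins. It stood at 66.0, 155, 197 and 39.5 CPM in postSTC1, 2, 5 and 7, against 3.03 to 5.13 CPM in preSTC and 1.14 to 4.19 CPM in preCTC. No postSTC library overlapped the preoperative ones, which were close to each other in both groups. Its log2 fold change was 4.88 ± 0.55 (SE) against preSTC and 5.51 ± 0.56 against preCTC.

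Ctsk encodes cathepsin K, the collagen-cutting protease of osteoclasts. It stood at 31.9, 135, 110 and 28.8 CPM in postSTC1, 2, 5 and 7, against 2.30, 3.08, 4.65 and 4.40 CPM in preSTC and 5.89, 9.15, 9.38 and 13.6 CPM in preCTC. Here the preoperative groups did not overlap either, with preCTC above preSTC in every library. On the log2 scale the fold change was 4.41 ± 0.54 (SE) for postSTC against preSTC and 3.01 ± 0.51 for postSTC against preCTC.

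**Figure D1:**
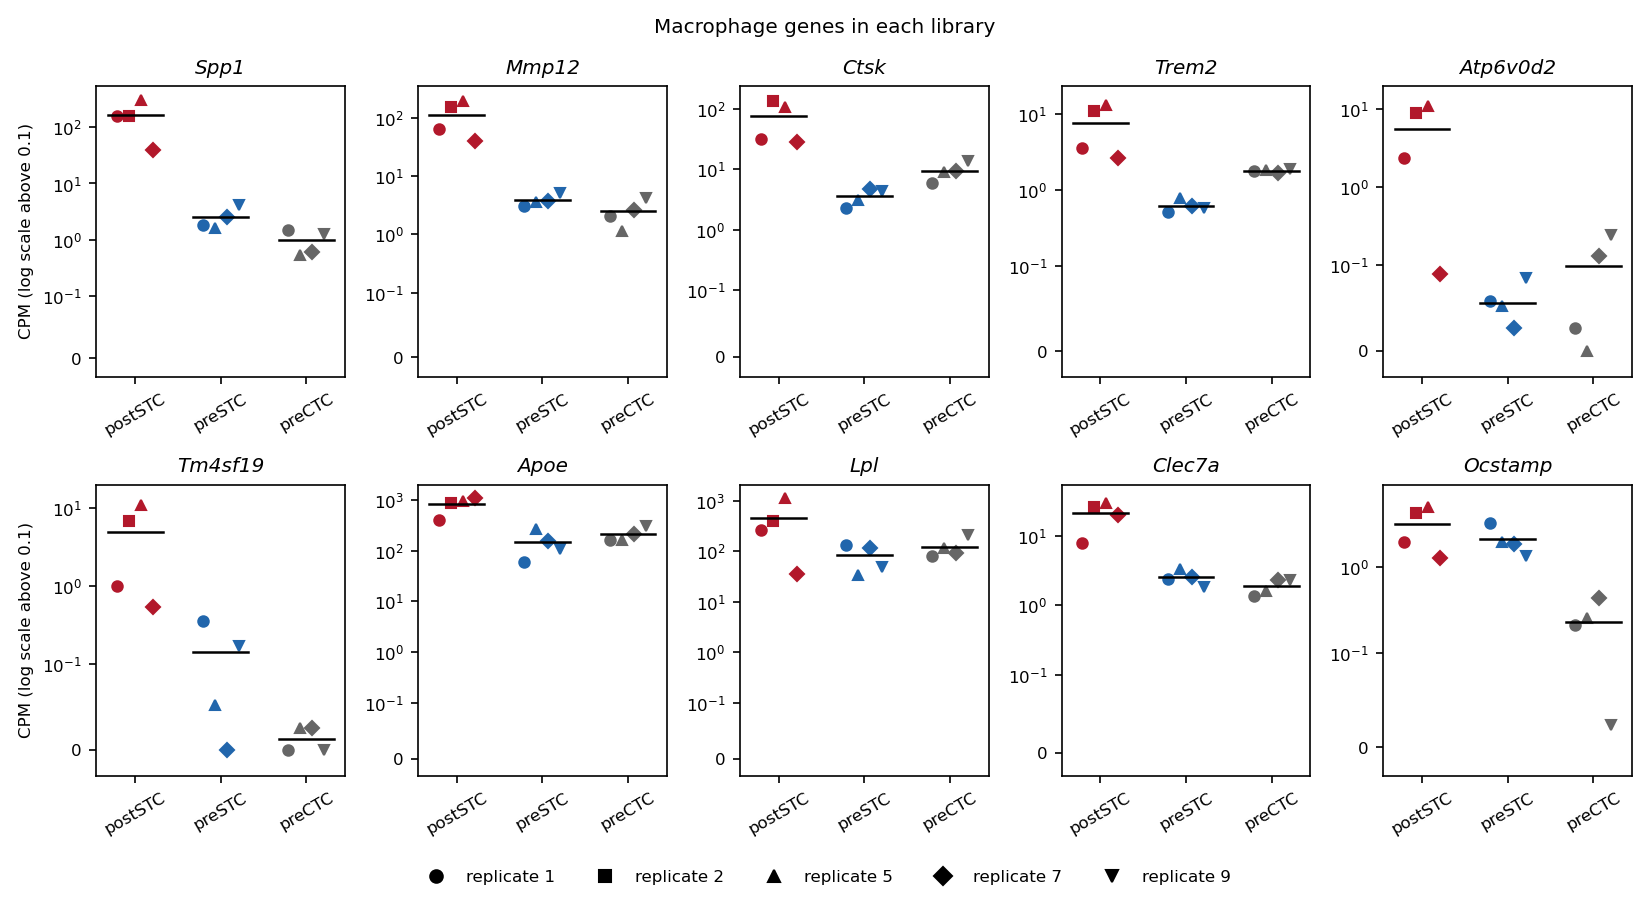
CPM of the 10 genes in each library, on an axis that is logarithmic above 0.1 and linear below it, with 1 panel per gene, symbols for the replicate number and a black line at the mean of the 4 libraries. Spp1 runs from 39.1 to 303 CPM in postSTC and stays at or under 4.06 CPM in the preoperative libraries, while the postSTC and preSTC points of Lpl and Ocstamp overlap.

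Apoe and Lpl, the genes of lipid transport, had high levels in every group. Apoe, which encodes the apolipoprotein by which macrophages export cholesterol, stood at 402, 886, 960 and 1102 CPM in postSTC1, 2, 5 and 7, against 58.9, 274, 155 and 110 CPM in preSTC and 165, 160, 214 and 304 CPM in preCTC. Every postSTC library was above every preoperative one, and postSTC1, the lowest of the 4, was 402 CPM beside the highest preoperative value of 304. Apoe had a log2 fold change of 2.48 ± 0.45 (SE) against preSTC and 1.99 ± 0.44 against preCTC. The place of postSTC7 as the highest library held on the scaled CPM but not in FPKM: in FPKM, which divides by the full library total, Apoe was 313, 723, 800 and 474 in postSTC1, 2, 5 and 7.

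Lpl encodes lipoprotein lipase, which frees fatty acids from triglyceride-rich lipoproteins and is made by macrophages, muscle and fat. It stood at 266, 409, 1150 and 36.2 CPM in postSTC1, 2, 5 and 7, against 136, 33.8, 116 and 48.0 CPM in preSTC and 81.2, 117, 91.2 and 209 CPM in preCTC. The groups overlapped, since postSTC7 lay among the preSTC libraries and below all preCTC libraries. The fitted log2 fold change of postSTC against preSTC, 2.48 ± 0.80 (SE), was 1.51 without postSTC5 and 2.84 without postSTC7. Against preCTC it was 1.90 ± 0.78 (SE), and 0.93 without postSTC5. The adipocyte genes Adipoq and Plin1 had a summed level of 241, 270, 675 and 2.96 CPM in postSTC1, 2, 5 and 7, against 11.7 to 154 CPM in preSTC and 108 to 252 CPM in preCTC. All 6 listed adipocyte markers were detected in every library, with a summed level of 29.2 to 1277 CPM in postSTC, 39.8 to 273 in preSTC and 174 to 421 in preCTC. Over the 12 libraries, which share these groups and depths, the logarithms of the Lpl level and of the sum of these 6 had a Pearson r of 0.949 and a Spearman rho of 0.93. Of these 6, Lep and Cidec rose in postSTC against preSTC, and 4 of 6 did without postSTC7. The part of adipocyte RNA in the Lpl difference was not tested.

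Trem2 encodes the lipid-sensing receptor itself. It stood at 3.59, 10.8, 12.8 and 2.60 CPM in postSTC1, 2, 5 and 7, against 0.524, 0.777, 0.621 and 0.588 CPM in preSTC and 1.78, 1.85, 1.67 and 1.88 CPM in preCTC. The 3 groups did not overlap: preSTC was lowest, preCTC was in between with little spread, and postSTC7 was the postSTC library nearest to preCTC. Trem2 had a log2 fold change of 3.56 ± 0.48 (SE) against preSTC and 2.06 ± 0.44 against preCTC.

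Clec7a encodes a receptor for the beta-glucans of fungi that signals through Syk and Card9. It stood at 7.79, 26.2, 29.7 and 19.98 CPM in postSTC1, 2, 5 and 7, against 2.39, 3.29, 2.59 and 1.82 CPM in preSTC and 1.39, 1.60, 2.34 and 2.34 CPM in preCTC. Every postSTC library was above every preoperative one, and here postSTC1 was the lowest. Clec7a had a log2 fold change of 3.05 ± 0.38 (SE) against preSTC and 3.45 ± 0.39 against preCTC.

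The 3 genes tied to fusion and acidification had low levels and did not share 1 pattern. Atp6v0d2, a subunit of the membrane part of the vacuolar proton pump that mouse osteoclasts need to fuse, had 72, 363, 416 and 2 counts in postSTC1, 2, 5 and 7, against 2, 2, 1 and 3 counts in preSTC and 1, 0, 5 and 10 counts in preCTC. In postSTC, 3 of the libraries were far above all others, and postSTC7 was at the preoperative level. The gene did not pass the filter on low counts, which asks for enough counts in as many libraries as a group holds. In a fit of every gene with a count, the log2 fold change was 6.59 ± 1.27 (SE) against preSTC and 5.77 ± 1.19 against preCTC. Without postSTC7 the gene passed the filter, and its log2 fold change against preSTC was 6.98 ± 0.84 (SE). Without preCTC9 its log2 fold change against preCTC was 6.68 ± 1.43 (SE).

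Tm4sf19 encodes a membrane protein reported in osteoclasts. It had 31, 283, 418 and 12 counts in postSTC1, 2, 5 and 7, against 12, 2, 0 and 6 counts in preSTC and 0, 1, 1 and 0 counts in preCTC. On the CPM scale the postSTC libraries were all above the preSTC ones, with 0.537 CPM in postSTC7 beside 0.349 CPM in preSTC1. The log2 fold change against preSTC was 5.10 ± 1.10 (SE), 4.32 without postSTC5 and 6.02 without preSTC1. Against preCTC, 744 counts in all stood beside 2, a ratio of 447 after scaling with an exact 95% counting interval of 123 to 3702, which leaves out the spread between libraries.

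Ocstamp encodes a membrane protein that acts with Dcstamp in the fusion of mouse osteoclasts. It stood at 2.00, 4.29, 5.13 and 1.30 CPM in postSTC1, 2, 5 and 7, against 3.35, 1.99, 1.86 and 1.34 CPM in preSTC and 0.209, 0.253, 0.437 and 0.0241 CPM in preCTC. The postSTC and preSTC libraries overlapped, and both lay above every preCTC library. Ocstamp had a log2 fold change of 0.58 ± 0.57 (SE) against preSTC and 3.78 ± 0.66 against preCTC. With the replicate number as a block, the value against preSTC was -0.07. Dcstamp was not among the genes analysed here.

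Over the 9 of 10 genes that passed the count filter, the median log2 fold change was 3.56 in postSTC against preSTC and 3.45 in postSTC against preCTC, beside 0.04 and 0.04 over all genes tested. Every postSTC library lay above every preSTC library in 7 of the 9, and 11.9% of all genes tested had that pattern. Every postSTC library lay above every preCTC library in 8 of the 9, against 9.54% of all genes. These counts restate how the genes were chosen, and Tm4sf19 passed the filter through its postSTC libraries, so they are no support for a difference. Both comparisons use the same postSTC libraries. Leaving out postSTC7 gave medians of 3.83 against preSTC and 3.46 against preCTC.

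**Figure D2:**
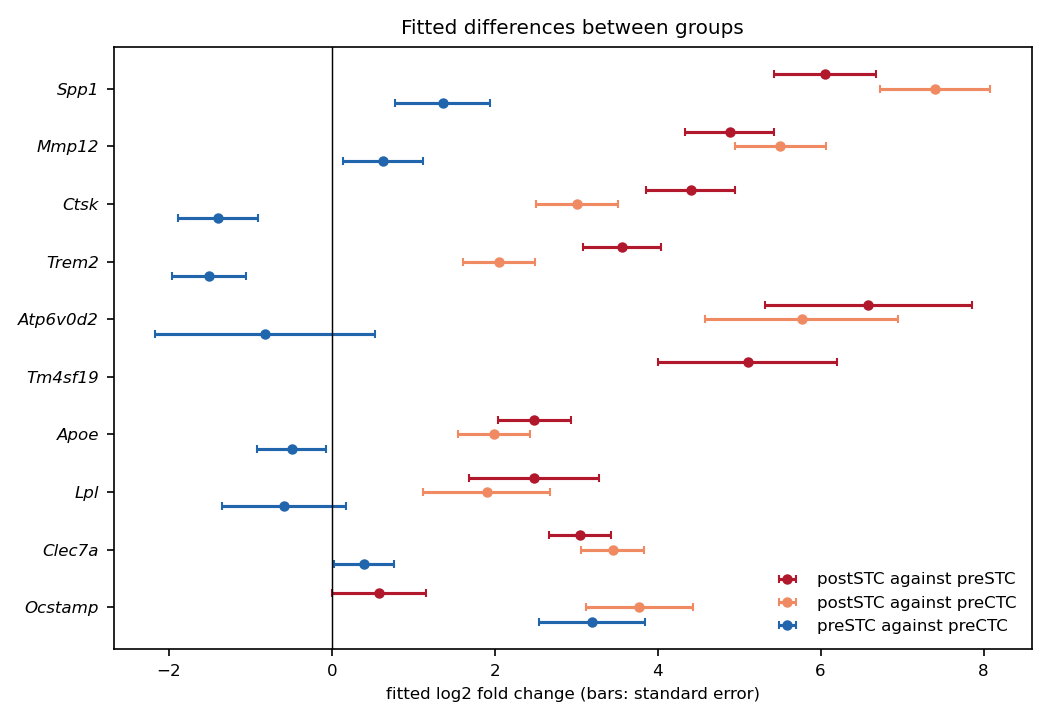
Fitted log2 fold changes of the 10 genes (points) with their standard errors (bars) in postSTC against preSTC, postSTC against preCTC and preSTC against preCTC. Tm4sf19 is drawn against preSTC only, because preCTC held 2 counts of it, and Atp6v0d2 comes from the fit of every gene with a count; Ocstamp is the gene whose preSTC value lies near its postSTC value, at 0.58.

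Within postSTC the libraries came in nearly the same order for most of the genes. The order from high to low was postSTC5, postSTC2, postSTC1 and postSTC7 in 7 of 10, and postSTC5 was the highest in 8 of 10 and postSTC7 the lowest in 8 of 10. Ctsk had postSTC2 and postSTC5 the other way round, while Apoe and Clec7a were lowest in postSTC1. The spread between the highest and the lowest postSTC library was 2.74-fold for Apoe, 3.81-fold for Clec7a and 3.95-fold for Ocstamp. It was 31.8-fold for Lpl and 124-fold for Atp6v0d2, both with postSTC7 at the low end.

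Levels of different genes can be set side by side per length, in FPKM. Apoe was the most abundant of the 10 in every postSTC library, at 578 ± 225 FPKM (SD, n = 4), and in all preoperative libraries but preSTC1, where Lpl was ahead. The means in postSTC were 165 ± 178 FPKM for Lpl, 112 ± 82.7 for Spp1, 66.0 ± 49.6 for Mmp12 and 55.7 ± 45.1 for Ctsk. Their spreads between libraries overlapped, but within each postSTC library Spp1 was above Mmp12 and Ctsk. Trem2 at 6.65 ± 5.24 FPKM, Clec7a at 5.28 ± 3.21 and Atp6v0d2 at 4.64 ± 4.41 came next. Their spreads between libraries overlapped, but within each postSTC library Trem2 was above Atp6v0d2. Tm4sf19 at 2.09 ± 2.25 and Ocstamp at 0.426 ± 0.295 FPKM were last. Ranked by FPKM among the 10, Spp1 was at place 2 or 3 in each postSTC library, at place 5 in each preSTC library and at place 6 or 7 in each preCTC library.

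The comparison of preSTC with preCTC uses no postSTC level as one of its groups, but the postSTC libraries share in the fit's filter, scaling and estimate of spread, and its tests use the same preoperative libraries by which the genes were chosen. Both groups are labelled as taken before an operation, yet 19.1% of all genes tested were called higher and 19.6% lower in preSTC. Some of these gaps were wide. Apoc2 averaged 104 CPM in preSTC and 0.0638 in preCTC, and Vil1 2139 and 476 CPM. Car2 averaged 12.6 and 1246 CPM, and Cd177 6.31 and 255 CPM. Whether preSTC and preCTC hold the same stretch of gut was not tested, so they are not interchangeable baselines. Of the 9 genes tested, 1 was called higher and 2 lower. The median log2 fold change was 0.40 beside -0.02 over all genes, but -0.066 in a fit of only these 2 groups, and the 9 include Tm4sf19, which passed the filter through its postSTC libraries. Ocstamp rose, with a log2 fold change of 3.20 ± 0.65 (SE, adjusted p = 0.00254). Trem2 fell by 1.51 on the log2 scale (SE 0.46, adjusted p = 0.0212), a call lost without preSTC1 (adjusted p = 0.0557). Ctsk fell by 1.40 on the log2 scale (SE 0.49, adjusted p = 0.0409), a call lost without any 1 of preSTC1, preSTC5, preSTC7, preSTC9, preCTC5, preCTC7 and preCTC9, with adjusted p of 0.0573 to 0.11. Over the 22 alternatives run for each gene, the adjusted p ran from 1.29e-06 to 0.0929 for Ocstamp, from 0.0011 to 0.187 for Trem2 and from 0.00143 to 0.127 for Ctsk.

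The other 6 genes tested did not pass. Spp1 had a log2 fold change of 1.36 ± 0.58 (SE, adjusted p = 0.0829) in preSTC against preCTC, and passed without postSTC7 (adjusted p = 0.0172), with a range of 0.0172 to 0.512 over its alternatives. Mmp12 had 0.62 (adjusted p = 0.341), Clec7a 0.40 (adjusted p = 0.415), Apoe -0.49 (adjusted p = 0.386) and Lpl -0.58 (adjusted p = 0.574). Tm4sf19 had 20 counts in preSTC and 2 in preCTC, a ratio of 10.9 after scaling with a counting interval of 2.64 to 95.7, and an adjusted p of 0.134. Over its 20 alternatives the adjusted p ran from 0.0394 to 0.926, with 1 of them past the threshold, and the log2 fold change of 3.15 was 2.24 without preSTC1. The preoperative groups were thus ordered differently for different genes: Ctsk and Trem2 were lowest in preSTC, while Ocstamp was lowest in preCTC.

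Genes that most macrophages share were called higher at about the share of all genes. In bulk tissue, fewer cells of a type and less RNA per cell cannot be told apart. Of 18 listed general markers 16 were tested, and Cd14 and Fcgr1a rose in postSTC against preSTC, which is 12.5% beside 11.1% of all genes. DESeq2 called 3 higher, and the median log2 fold change was -0.07. Cd14, a co-receptor for bacterial lipopolysaccharide, averaged 68.9 ± 20.9 CPM in postSTC and 22.4 ± 0.884 in preSTC (SD, n = 4 each; log2 fold change 1.62, adjusted p = 0.0018). Fcgr1a, a high-affinity antibody receptor, averaged 16.1 ± 5.56 CPM in postSTC and 9.06 ± 1.28 in preSTC (log2 fold change 0.83, adjusted p = 0.0381). The call of Fcgr1a was lost with the replicate block (adjusted p = 0.166) and without any 1 of postSTC2, postSTC5, the 4 preSTC libraries and preCTC7, with adjusted p of up to 0.101. Against preCTC, Cd68 and Lyz2 rose and Cd14 fell. Lyz2 averaged 2160 ± 1433 CPM in postSTC, 1997 ± 992 in preSTC and 259 ± 94.2 in preCTC. Its log2 fold change was 0.11 in postSTC against preSTC (adjusted p = 0.899) and 2.95 in preSTC against preCTC (adjusted p = 0.00133). The summed level of the list was 1216 to 5284 CPM in postSTC, 1998 to 4541 in preSTC and 909 to 1293 in preCTC, and without Lyz2, which dominates it, 551 to 1329, 858 to 1160 and 771 to 985 CPM. Marco was at 0 in all preoperative libraries and Vsig4 in all preCTC libraries, and neither was tested.

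Complement C1q, a product of tissue macrophages, gives another base for the levels. Per 100 counts of C1qa, C1qb and C1qc, Spp1 had 10.6 to 65.8 counts in postSTC, against 0.297 to 0.946 in preSTC and 0.13 to 0.399 in preCTC. Ctsk had 7.78 to 24.4 in postSTC, against 0.432 to 1.02 in preSTC and 1.57 to 3.11 in preCTC. Trem2 had 0.701 to 2.25 in postSTC, against 0.0985 to 0.144 in preSTC and 0.368 to 0.476 in preCTC. Mmp12, Clec7a and Apoe likewise had every postSTC library above every preoperative one, with Apoe at 160 to 298 in postSTC, 11.1 to 50.7 in preSTC and 40.9 to 69.3 in preCTC. Lpl, Ocstamp and Atp6v0d2 overlapped: Lpl had 9.77 to 203 in postSTC and 6.24 to 25.6 in preSTC, Ocstamp 0.351 to 0.904 in postSTC and 0.313 to 0.629 in preSTC, and Atp6v0d2 0.0242 to 1.95 in postSTC and 0 to 0.0549 in preCTC. These ratios use the same libraries and are a description.

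**Figure D3:**
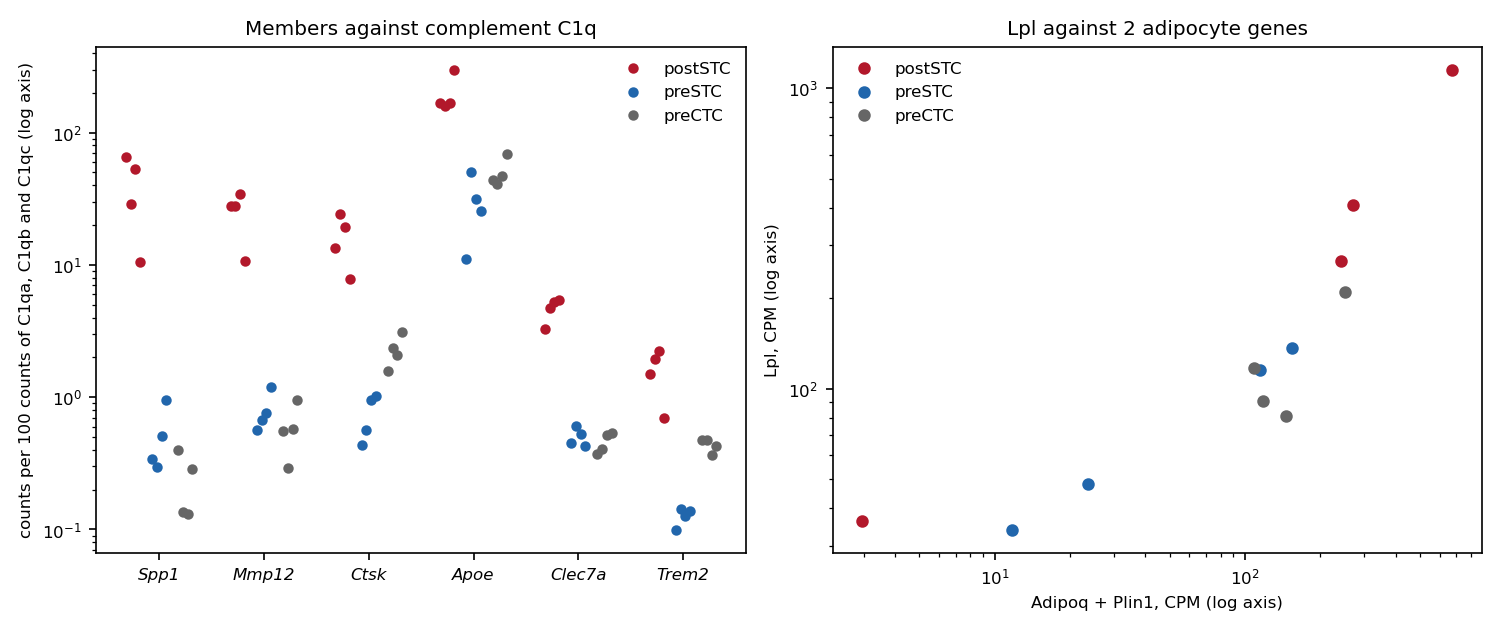
Left, counts of 6 of the genes per 100 counts of C1qa, C1qb and C1qc in each library, on a logarithmic axis. Right, Lpl against the summed adipocyte genes Adipoq and Plin1 in CPM, both axes logarithmic: Spp1 runs from 10.6 to 65.8 in postSTC on the left, and on the right the library with the lowest adipocyte sum, 2.96 CPM, is postSTC7, with Lpl at 36.2 CPM.

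Markers of long-lived resident macrophages moved in both directions. Of 10 tested, 2 rose, F13a1 and Mrc1, and 2 fell, among them Maf, in postSTC against preSTC. F13a1, a coagulation factor subunit made by resident macrophages, averaged 39.3 ± 26.0 CPM in postSTC and 7.80 ± 2.95 in preSTC (log2 fold change 2.34, adjusted p = 0.00851, and 0.0692 with the replicate block). Mrc1, the mannose receptor, averaged 41.0 ± 16.0 CPM in postSTC and 16.4 ± 3.87 in preSTC (log2 fold change 1.32, adjusted p = 0.00998). In preCTC, F13a1 averaged 51.9 ± 15.6 CPM and Mrc1 45.9 ± 11.1 CPM. Neither was called in postSTC against preCTC (log2 fold changes -0.40 and -0.16, adjusted p of 0.606 and 0.743). Maf, a transcription factor of mature macrophages, had a log2 fold change of -0.67 against preSTC (adjusted p = 0.0405) and of 1.39 against preCTC (adjusted p = 0.000961).

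Of 23 other genes of lipid-handling macrophages, 7 rose in postSTC against preSTC, with a median log2 fold change of 0.66. They were Gpnmb, Olr1, Cd9, Cd63, Cd36, Lgals1 and Npc2, which is 30.4% beside 11.1% of all genes. Without postSTC7, 12 rose (52.2% beside 11.0%), and with the replicate block 4 rose (17.4% beside 6.61%). The list was written with earlier results of these data known. Cd36 stood at 12.2, 11.2, 18.7 and 3.76 CPM in postSTC1, 2, 5 and 7, and Fabp4 at 334, 396, 973 and 30.1 CPM. The adipocyte markers summed to 486, 559, 1277 and 29.2 CPM in the same libraries. The part of adipocyte RNA in the counts of this list, with or without postSTC7, was not tested. Gpnmb, a lysosomal membrane glycoprotein of stressed macrophages, stood at 153, 426, 530 and 84.6 CPM in postSTC1, 2, 5 and 7, against 10.6 to 21.4 CPM in preSTC. Its log2 fold change was 4.26 ± 0.57 (SE, adjusted p = 0.00128), and 3.72 against preCTC (adjusted p = 0.000961). Olr1, a receptor for oxidised low-density lipoprotein, averaged 6.36 ± 3.05 CPM in postSTC and 0.594 ± 0.297 in preSTC (log2 fold change 3.41, adjusted p = 0.00163, and 3.82 against preCTC with adjusted p = 0.000411). Cd9, Cd63, Lgals1 and Npc2 are also made by many other cells. Npc2 stood at 137, 169, 190 and 549 CPM in postSTC1, 2, 5 and 7, against 117 to 120 CPM in preSTC, so its postSTC mean leaned on postSTC7. Against preCTC, 6 of the 23 rose, Gpnmb, Olr1, Fabp5, Lipa, Nr1h3 and Itgax, and 2 fell, Cd9 and Pparg. Cd63, Cd36, Lgals1 and Npc2 were not called against preCTC (adjusted p of 0.257, 0.065, 0.837 and 0.275).

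Signalling partners of Trem2 and Clec7a were set against both preoperative groups. Tyrobp, the adaptor of Trem2, averaged 32.3 ± 13.1 CPM in postSTC and 20.5 ± 2.71 in preSTC, and its log2 fold change of 0.66 did not pass (adjusted p = 0.11), but did without postSTC1 (adjusted p = 0.0068). Of 15 genes of Trem2 signalling, 1 was called in postSTC against preSTC, Adam10, which fell. It encodes the protease that sheds Trem2 (log2 fold change -0.35, adjusted p = 0.0141, and 0.0912 with the replicate block). At an unadjusted p under 0.05, 1 of the 15 was higher, and DESeq2 called 0 higher and 1 lower. Against preCTC 4 of the 15 rose, Syk, Plcg2, Hcst and Adam10, so that Adam10 had the opposite direction there (log2 fold change 0.27, adjusted p = 0.038). Of 10 genes of Clec7a signalling and related lectins, 1 rose in postSTC against preSTC, Clec4e, a receptor for mycobacterial glycolipid and for dying cells. Clec4e averaged 3.496 ± 2.34 CPM in postSTC and 0.198 ± 0.121 in preSTC (log2 fold change 4.12, adjusted p = 0.00631), and against preCTC 5 of the 10 rose.

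Of 13 tested partners of lipoprotein lipase and apolipoproteins, 4 rose in postSTC against preSTC, Pltp, Vldlr, Angptl4 and Lrp1, and 2 fell, among them Lrp8. Without postSTC7, 7 rose and 1 fell, and with the replicate block 2 rose and 1 fell. Pltp, which moves phospholipids between lipoproteins, averaged 99.8 ± 34.2 CPM in postSTC and 28.9 ± 4.10 in preSTC (log2 fold change 1.79, adjusted p = 0.000883). Angptl4, an inhibitor of lipoprotein lipase, averaged 24.3 ± 11.1 CPM in postSTC and 4.03 ± 3.08 in preSTC (log2 fold change 2.59, adjusted p = 0.0195, and 3.19 without preSTC1 with adjusted p = 0.0187). The Angptl4 call was lost with the replicate block (adjusted p = 0.0539) and without any 1 of preSTC5, preSTC7 and preSTC9, with adjusted p of up to 0.0554. Gpihbp1, which carries the lipase to the capillary wall, averaged 5.66 ± 4.29 CPM in postSTC and 1.82 ± 0.559 in preSTC, and its log2 fold change of 1.64 did not pass (adjusted p = 0.085), but did without postSTC7 (adjusted p = 0.00618). In postSTC1, 2, 5 and 7, Angptl4 stood at 26.0, 32.5, 30.5 and 8.15 CPM and Gpihbp1 at 4.40, 6.75, 10.9 and 0.627 CPM. The summed adipocyte markers were also lowest in postSTC7 within postSTC, at 29.2 CPM. The part of adipocyte RNA in the differences of both genes was not tested.

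Of 10 receptors for osteopontin, Itgb5, Itga5 and Itgav rose and Cd44 fell in postSTC against preSTC. Itgb5 averaged 111 ± 13.4 CPM in postSTC and 55.4 ± 4.46 in preSTC (log2 fold change 1.00, adjusted p = 0.001). Itga5 averaged 43.2 ± 5.37 CPM in postSTC and 24.7 ± 2.82 in preSTC (log2 fold change 0.81, adjusted p = 0.0124, and 0.0882 with the replicate block). Cd44 averaged 110 ± 13.9 CPM in postSTC and 170 ± 17.7 in preSTC (log2 fold change -0.63, adjusted p = 0.0452, and 0.0784 with the block). The Cd44 call was lost without any 1 of the 4 postSTC libraries, the 4 preSTC libraries or preCTC9, with adjusted p of up to 0.115. Against preCTC 1 of the 10 was called, Itga5, which fell. Integrins are made by most cells of the gut wall, and smooth muscle genes moved with them: 5 of 7 rose in postSTC against preSTC, with a summed level of 4501 to 7342 CPM in postSTC, 2361 to 3504 in preSTC and 7547 to 12568 in preCTC. The part of smooth muscle RNA in the integrin differences was not tested.

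Genes of fusion and bone resorption were called in a few cases. Of 20 other genes tested, 5 rose in postSTC against preSTC: Car2, Mmp9, Mmp14, Mitf and Cd81. With the replicate block 1 rose and 1 fell. Car2, a carbonic anhydrase of osteoclasts that gut epithelium also makes, stood at 96.6, 33.4, 194 and 2531 CPM in postSTC1, 2, 5 and 7, against 11.4 to 14.6 CPM in preSTC and 565 to 2642 CPM in preCTC (log2 fold change 5.82 against preSTC, adjusted p = 0.0097). Without postSTC7 the Car2 value was 3.08 (adjusted p = 0.00535), and against preCTC it was -0.80 (adjusted p = 0.641). Mmp9, a gelatinase of osteoclasts and neutrophils, stood at 9.86, 94.8, 30.5 and 6.18 CPM in postSTC1, 2, 5 and 7, against 7.51 to 10.6 CPM in preSTC. Its log2 fold change of 2.07 (adjusted p = 0.0493) was 0.56 with the replicate block (adjusted p = 0.289) and 0.89 without postSTC2. The Mmp9 call was also lost without any 1 of postSTC5, the 4 preSTC or the 4 preCTC libraries, with adjusted p of up to 0.194. Against preCTC, where Mmp9 averaged 1.01 ± 0.256 CPM, the log2 fold change was 5.13 (adjusted p = 0.00102). Of 6 neutrophil markers tested, 3 rose in postSTC against preSTC, and the 7 markers listed had a summed level of 49.7 to 172 CPM in postSTC, 10.7 to 18.4 in preSTC and 134 to 465 in preCTC. In postSTC and preCTC that sum was mostly Cd177, with means of 69.9 and 255 CPM. The part of neutrophil RNA in the Mmp9 difference was not tested.

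Other proton pump genes were called at about the share of all genes. Of 17 other subunits and accessory proteins, Atp6v0e1 and Atp6ap1 rose in postSTC against preSTC, which is 11.8% beside 11.1% of all genes, DESeq2 called 4 higher, and the median log2 fold change was 0.09. Atp6v0d1, the form of the d subunit found in most cells, averaged 173 ± 22.4 CPM in postSTC and 143 ± 7.26 in preSTC (log2 fold change 0.27, adjusted p = 0.0887, and 0.034 without postSTC1). Atp6v0e1 averaged 70.1 ± 17.3 CPM in postSTC and 47.1 ± 0.905 in preSTC (log2 fold change 0.57, adjusted p = 0.0159). Atp6ap1 averaged 134 ± 12.7 CPM in postSTC and 109 ± 5.18 in preSTC (log2 fold change 0.29, adjusted p = 0.0326). The Atp6ap1 call was lost with the replicate block (adjusted p = 0.124) and without any 1 of postSTC2, postSTC5 and the 4 preSTC libraries, with adjusted p of up to 0.0965.

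Other lysosomal proteases were called in both directions. Of 14 other cathepsins and cystatins, Ctsd, Ctsf and Ctsl rose and Ctsz fell in postSTC against preSTC, and the same counts were found with the replicate block. Ctsd, the aspartic protease of lysosomes, averaged 321 ± 170 CPM in postSTC and 131 ± 13.9 in preSTC (log2 fold change 1.29, adjusted p = 0.00959). It stood at 185, 235, 298 and 566 CPM in postSTC1, 2, 5 and 7, so the mean leaned on postSTC7. The Ctsd call held with each library left out, with adjusted p of up to 0.0313. Ctsf, a cysteine protease, averaged 33.7 ± 10.8 CPM in postSTC and 14.4 ± 1.73 in preSTC (log2 fold change 1.23, adjusted p = 0.00313). Against preCTC the log2 fold changes of Ctsd and Ctsf were 0.02 and -0.11, with adjusted p of 0.967 and 0.765.

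Among growth factors and chemokines of macrophages, Csf1, Il34 and Ccl3 rose in postSTC against preSTC, of 16 tested. Against preCTC, Il34 fell by 1.03 on the log2 scale (adjusted p = 0.00129), and Csf1 did not pass (log2 fold change 0.17, adjusted p = 0.64). Csf1, the main macrophage growth factor, averaged 51.1 ± 16.1 CPM in postSTC and 25.8 ± 1.68 in preSTC (log2 fold change 0.98, adjusted p = 0.0119). Ccl3, a chemokine that draws monocytes, averaged 4.33 ± 3.08 CPM in postSTC and 0.927 ± 0.592 in preSTC (log2 fold change 2.22, adjusted p = 0.0234). The Ccl3 call was lost with the replicate block (adjusted p = 0.0561) and without any 1 of postSTC2, postSTC5, preSTC1, preSTC7 and preSTC9, with adjusted p of up to 0.0682. Over the 11 related lists together, 32 of 160 genes tested rose and 7 fell, with a median log2 fold change of 0.16 beside 0.04 over all genes. Of all genes tested, 11.1% were called higher and 6.9% lower. The lists were written with earlier results of these data known and hold genes that other cells also make, so the total is a description.

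Likeness to the 10 genes was measured as the Pearson correlation of log2 CPM with the mean z-score of the 9 tested genes over the 12 libraries. It is a description, because the libraries share groups and the score was built from chosen genes. The postSTC levels of the genes it picks follow from that choice, so they are given with no test. Among all other genes tested, 7 of the 8 most alike were Matk (r = 0.98), Gpnmb (0.97), Mrgprg (0.968), Lilrb4 (0.967), Olr1 (0.965), Dio3 (0.955) and Psca (0.941). Gpnmb and Olr1 also stood in the lipid-handling list. With each gene left out of its own score, the correlations of the chosen genes were 0.971 for Mmp12, 0.943 for Clec7a, 0.937 for Spp1, 0.927 for Tm4sf19, 0.907 for Ctsk and 0.855 for Trem2. They were 0.783 for Apoe, 0.627 for Lpl and 0.502 for Ocstamp.

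Lilrb4, an inhibitory receptor of myeloid cells, stood at 4.30, 14.2, 17.5 and 4.79 CPM in postSTC1, 2, 5 and 7, against 0.27 to 0.932 CPM in preSTC and 0.279 to 0.795 CPM in preCTC. Matk, a kinase of blood cells that restrains Src kinases, averaged 9.31 ± 5.06 CPM in postSTC, 2.99 ± 0.254 in preSTC and 2.63 ± 0.403 in preCTC. Mrgprg, an orphan receptor of the Mas-related family, stood at 1.16, 1.43, 2.39 and 0.985 CPM in postSTC1, 2, 5 and 7 and at 0 in all 8 preoperative libraries. Its postSTC mean of 1.49 CPM was at least 17.1-fold higher than the level that 3 counts per library would give in preSTC. Dio3, which inactivates thyroid hormone, and Psca, a surface protein of epithelia, averaged 1.69 ± 0.933 and 2.53 ± 1.22 CPM in postSTC, against 0.125 ± 0.0844 and 0.217 ± 0.108 CPM in preSTC.

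**Figure D4:**
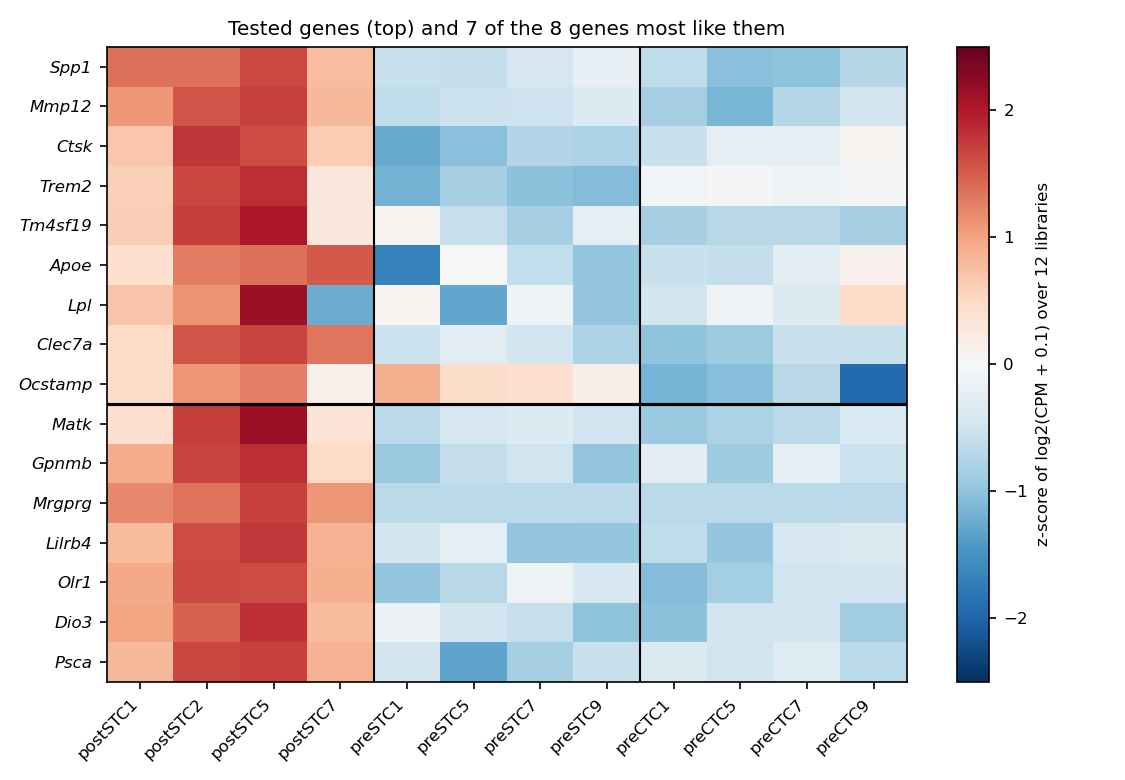
Each row is a gene and each column a library, and colour gives the z-score over the 12 libraries of log2(CPM + 0.1), red high and blue low. The 9 tested genes stand above the thick line and 7 of the 8 most alike below it; the postSTC columns are red in most rows, and the exceptions above the line are Lpl, blue in postSTC7, and Ocstamp, whose preSTC columns are red or pale while preCTC is blue.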

How the data were processed

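PolyA RNA of rat intestine was sequenced, after TRIzol extraction and with a VAHTS Universal V6 kit, per the labels' protocols. The submitters' processing notes name fastp, HISAT2, HTSeq and the assembly mRatBN7.2, with no versions. The series' design text describes a pig genome and other tools, which the rat gene names go against, and it was not used. Whole-number read counts for each gene were deposited by the authors, and the deposited FPKM table holds the same counts per length and library total (largest relative deviation within a gene 8.8e-16). Strand use and the handling of multiply mapped reads are not stated in the labels, so antisense overlaps and near-identical copies such as Lilrb4 and its relatives are uncertain. Counts in replicates of a group differed by more than sampling noise.

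Counts were fitted in R 4.3.3 with edgeR 4.0.16 (TMM scaling, filterByExpr, quasi-likelihood test, group as the only term, all 12 libraries), and p-values were adjusted by Benjamini-Hochberg over all 15704 genes kept of 18749 and called under 0.05. The common biological coefficient of variation was 0.322. The steps were tested on simulated data. limma 3.58.1 on log2(FPKM + 1) and log2(FPKM + 0.1) and DESeq2 1.42.0 were alternatives, with other scalings and filters, the replicate block and each library left out. Groups and replicate numbers came from titles. Same-numbered postSTC and preSTC libraries deviated together (r of 0.236, 0.158 and 0.168). Values with a replicate block over all 12 libraries, preCTC among them, are therefore given where that block changes a call. The genes, the 20 lists and the tests were chosen with earlier results of these data known. Besides the 10 genes and named partners, the text names the 2 largest called changes of each pathway or macrophage list and the 8 genes most like the 10; further called genes were named after their values were seen, and 3 genes of these kinds are not reported here. The alternatives on gene lists without postSTC7, on lists with the block, and on the macrophage sum without Lyz2 were added after seeing the data. Promoter windows came from RefSeq tables of GRCr8, and no coordinates of mRatBN7.2 are given.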

Additional observations from a re-analysis of the deposited data

Results flagged for a closer look

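Chance alone is expected to set 1 library of 4 apart in about 1 in 20 groups; 120 groups of 4 libraries were looked at for the named genes, and 5 held such a library. None of the 5 was among the 10 genes. Car2 in postSTC7 stood above the other postSTC libraries by a gap of 0.936 of the whole range. Mmp9 in preSTC5 stood apart by 0.841 of the range in preSTC, and Atp6v0e1 in preSTC1 by 0.873. Ctsf in preCTC9 and Pltp in preCTC1 stood apart in preCTC by 0.847 and 0.841 of the range.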

How the results depend on the processing

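For genes changed, postSTC against preSTC, the count of 2833 was 521 and 653 with limma on log2(FPKM + 1) and log2(FPKM + 0.1), 1746 with the replicate block, 66 with the block on the 8 libraries compared, and 1609 to 3684 without 1 library (1609 without preSTC1, 1855 without preSTC5, 1681 without preSTC7). For genes changed, postSTC against preCTC, 2612 became 1668 and 1569 with limma, 1399 with the block, 1455 with only the 2 groups compared, 151 with both, and 1780 to 3123 without 1 library. For genes changed, preSTC against preCTC, 6077 became 3824 and 3753 with limma, and 5037 to 7258 without 1 library. For members, the median log2 fold change with limma on log2(FPKM + 1) was 1.99 in postSTC against preSTC, 1.66 in postSTC against preCTC and 0.068 in preSTC against preCTC. The preSTC against preCTC median was 0.21 with limma on log2(FPKM + 0.1), turned to -0.066 with only those 2 groups and to -0.15 with the block as well, and ran from 0.24 to 0.51 without 1 library; the postSTC medians ran from 3.17 to 3.83 against preSTC and from 3.23 to 3.72 against preCTC. The causes were not tested. A pseudocount shrinks the fold changes of low genes, but the limma settings also changed the test and the scaling, and no run separated these. Of 27 named genes called outside the 10, none turned sign; 9 lost the call with the block, 27 with the block on 8 libraries, 14 with each limma setting, 1 without postSTC7 and 0 with DESeq2. Over the alternatives the adjusted p of those 9 ran from 8.18e-06 (F13a1) to 0.671 (Atp6ap1). The block spanned all 12 libraries, so it also tied preCTC to the other groups by number. Correlations of same-numbered libraries that involve preCTC ran from -0.0278 to 0.222. Only the block on the 8 libraries compared left the third group out. Low counts limit Atp6v0d2 and Tm4sf19.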

Other observations

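Other cell types were looked at by lists of markers in postSTC against preSTC. Of 6 fibroblast markers 3 rose, Dcn, Lum and Fbln1, and the summed level was 1948 to 3542 CPM in postSTC, 1713 to 2241 in preSTC and 4540 to 6962 in preCTC. Of 6 epithelial markers 1 was called by edgeR, Vil1, which fell, and DESeq2 called 3 lower. Of 6 mast cell markers 0 were called by edgeR and 0 by DESeq2, and 1 was higher at an unadjusted p under 0.05; the summed level was 63.3 to 130 CPM in postSTC, 76.7 to 96.2 in preSTC and 79.1 to 87.6 in preCTC. Of 6 dendritic cell markers 0 were called by edgeR, 0 by DESeq2 and 0 at an unadjusted p under 0.05, with a summed level of 38.7 to 79.8 CPM in postSTC, 70.8 to 99.6 in preSTC and 22.1 to 38.8 in preCTC. Of 3 bone-forming markers tested 0 were called by edgeR and 0 by DESeq2, and 1 was higher at an unadjusted p under 0.05; the other 3 of that list, Bglap, Sp7 and Dmp1, did not pass the count filter. Of 8 accessory gland genes tested 1 was called higher in postSTC against preSTC, and 0 were without postSTC7.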
